A study of Homo sapiens with 8 samples.

Results

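The S100 calcium-binding protein genes were examined in SKBR3 cells, an established line from a human breast tumour with amplified ERBB2 (HER2), in control cells and in cells in which FOXA1 had been knocked down. The members were the 10 genes S100A2, S100A4, S100A6, S100A7, S100A8, S100A9, S100A10, S100A11, S100A14 and S100P, found by their symbols among the 30434 genes of the deposited count table. A further 7 S100 genes of the same table (S100A1, S100A3, S100A5, S100A7A, S100A12, S100A13 and S100A16) are given beside them. The 4 control libraries came from SKBR3 cells whose genotype is labelled WT, and the labels do not say whether these cells carried a control vector. The 4 knockdown libraries came from a stable SKBR3 line made with commercial lentiviruses that encode several different short hairpin RNAs against FOXA1, a forkhead transcription factor of luminal breast cells that opens chromatin. Both were grown in DMEM with serum and antibiotics, and nothing says whether the replicates were separate cultures, so p-values measure only the spread between these libraries, which may be technical.

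S100 proteins are small proteins that bind calcium through paired EF-hand motifs, mostly as dimers, and then expose a surface that binds other proteins. Some members act inside the cell on annexins or the cytoskeleton. Others are secreted and signal through receptors such as RAGE (encoded by AGER). In breast epithelium and breast tumours several members mark squamous differentiation or inflammation, and most of the genes lie side by side on chromosome 1, beside and within the epidermal differentiation complex.

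Library totals ran from 19087878 to 23786684 counts, and 3 counts were 0.126 to 0.157 per 1e6 of these unscaled totals. CPM below is the count divided by the library total after TMM scaling, times 1e6. FOXA1 itself had 2.06% of its control level left, from 191.4 CPM ± 1.65 to 3.95 CPM ± 0.340 (SD, n = 4 per group). Pairs of libraries within a group all differed by more than sampling noise, with a chi-square per degree of freedom of at least 2.20. Control replicate 3 stood apart, at 4.92 to 6.30 in its pairs with the other controls, and no call of a member was lost without it. Of the 10 luminal epithelial marker genes fixed for this cell line, KRT8, KRT18, KRT19 and EPCAM were each above 160 CPM in every library, while CDH1, the epithelial cadherin, stayed below 0.6 CPM. A change in bulk RNA does not tell apart fewer cells that make a transcript and less transcript per cell.

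The promoters of 7 genes are shown first, 5 that were higher and 2 that were lower, because genes close together on chromosome 1 moved in opposite directions. They were chosen after the values had been seen. Sequences are RefSeq's (GRCh38.p14), given as the 250 bases before the transcription start, 5′ to 3′ on the strand of the gene. Capitals mark TATAAA within the last 50 bases and any match, on either strand, to the forkhead motifs TGTTTAC and TGTTTGC, the AP-1 motif TGANTCA or the AP-2 motif GCCNNNGGC. The windows are chr1:153357604-153357853 (plus strand) for S100A9, chr1:153391074-153391323 (minus) for S100A8, chr1:153375622-153375871 (minus) for S100A12, chr1:153460652-153460901 (minus) for S100A7, chr1:151993860-151994109 (minus) for S100A10, chr1:153535992-153536241 (minus) for S100A6 and chr4:6693628-6693877 (plus) for S100P. For S100A8 the table lists 3 starts, and the window with TATAAA is printed. The first 5 genes were higher in knockdown and the last 2 lower.
S100A9: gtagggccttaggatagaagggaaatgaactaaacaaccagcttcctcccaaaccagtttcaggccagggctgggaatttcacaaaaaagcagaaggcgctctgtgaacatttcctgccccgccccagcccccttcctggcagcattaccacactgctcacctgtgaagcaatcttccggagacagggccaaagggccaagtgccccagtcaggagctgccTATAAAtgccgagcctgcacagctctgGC
S100A8: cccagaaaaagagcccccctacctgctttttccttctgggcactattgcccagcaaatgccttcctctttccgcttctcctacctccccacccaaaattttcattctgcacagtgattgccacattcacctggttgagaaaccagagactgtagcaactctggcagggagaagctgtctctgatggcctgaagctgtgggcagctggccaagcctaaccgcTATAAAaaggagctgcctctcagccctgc
S100A12: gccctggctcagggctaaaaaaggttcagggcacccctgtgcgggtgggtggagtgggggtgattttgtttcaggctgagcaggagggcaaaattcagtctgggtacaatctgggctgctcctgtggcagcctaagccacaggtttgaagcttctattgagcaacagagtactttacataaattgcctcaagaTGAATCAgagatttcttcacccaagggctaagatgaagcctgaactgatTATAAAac
S100A7: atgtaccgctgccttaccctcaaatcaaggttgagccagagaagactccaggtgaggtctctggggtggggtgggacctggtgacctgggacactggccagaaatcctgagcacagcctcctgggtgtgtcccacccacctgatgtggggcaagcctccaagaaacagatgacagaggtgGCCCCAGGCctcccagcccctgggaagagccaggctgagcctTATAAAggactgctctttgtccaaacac
S100A10: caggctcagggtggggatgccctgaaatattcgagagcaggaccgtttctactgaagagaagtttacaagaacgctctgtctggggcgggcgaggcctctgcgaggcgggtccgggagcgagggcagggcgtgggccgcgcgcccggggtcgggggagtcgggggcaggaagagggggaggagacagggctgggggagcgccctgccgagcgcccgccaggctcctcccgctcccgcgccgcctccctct
S100A6: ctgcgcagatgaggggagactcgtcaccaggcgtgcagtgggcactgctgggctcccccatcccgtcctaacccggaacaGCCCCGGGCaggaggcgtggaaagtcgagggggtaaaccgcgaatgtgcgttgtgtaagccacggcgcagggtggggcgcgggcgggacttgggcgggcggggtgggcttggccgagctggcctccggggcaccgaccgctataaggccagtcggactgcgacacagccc
S100P: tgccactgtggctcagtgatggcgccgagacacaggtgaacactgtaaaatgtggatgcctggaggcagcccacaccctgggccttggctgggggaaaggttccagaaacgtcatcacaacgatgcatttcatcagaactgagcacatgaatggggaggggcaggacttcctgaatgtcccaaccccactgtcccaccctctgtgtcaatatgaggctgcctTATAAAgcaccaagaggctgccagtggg

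Motifs were counted in the 13 promoter windows of the 10 members, some of which have several starts. Searched over 300 bases (250 before and 50 after each start), 1 of the 10 members, S100A9, held a forkhead motif. There TGTTTGC lay on the opposite strand from position -2 across the start, so that just 2 of its bases are in the printed stretch. Position -1 is the last base before the start. Either forkhead motif was found in 7.17% of all 35116 promoter windows of the table, so 1 match is near that share. The shares of all promoters are per window, not per gene. AP-1 motifs were present in 1 member, S100A2, and AP-2 motifs in S100A2, S100A6 and S100A7, against 7.71% and 23.2% of all windows. No match in these windows says only that those letters are not there.

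TATAAA, searched on the gene's strand in the 50 bases before the start after the values had been seen, was present at 1 start or more in each of the 5 genes from S100A9 to S100A7 on chromosome 1. It was at position -29 in S100A9 and S100A8, at -28 in S100A7 and S100A7A and at -8 in S100A12. Among the 9 genes from S100A6 to S100A1 it was found in 2, S100A4 and S100A13. Only these exact letters were counted. The windows of S100A6 and S100A14 hold TATAAG in the same 50 bases, so the contrast between the groups depends on the exact motif. S100P held it at -28, and of all windows 2.63% did. S100A6 and S100A10 had no TATAAA and were richer in G and C, at 70% and 71.2% of the 250 bases, against 55.6% in S100A9. The S100A7 and S100A7A windows were identical at 241 of 250 bases, and reads of these near copies can be divided between them by the counting, so their values are uncertain.

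All 10 members passed the filter on low counts, and each was called at an adjusted p under 0.05 in edgeR's quasi-likelihood test, 4 higher and 6 lower in knockdown. This share has to be read against a background in which 77.1% of the 16430 genes tested were called, 39.4% higher and 37.7% lower. The fitted change reached 2-fold or more in S100A7, S100A9 and S100A10 upward and in S100A2, S100A4, S100A6, S100A14 and S100P downward, 8 of 10 members where the background is 28.3%. In 9 members every knockdown library lay on one side of all controls (background 71.9%), S100A11 being the exception. The members were chosen with earlier results of these data known. These shares therefore do not test whether S100 genes changed more often than other genes. S100A2 passed the filter through the control libraries, since 1 of 4 knockdown libraries reached 10 counts; of the other S100 genes, S100A3 likewise passed through control and S100A12 through knockdown. The median log2 fold change of the members was -0.75, beside 0.02 over all genes tested. The plot of CPM by library shows each member on its own axis.

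**Figure D1:**
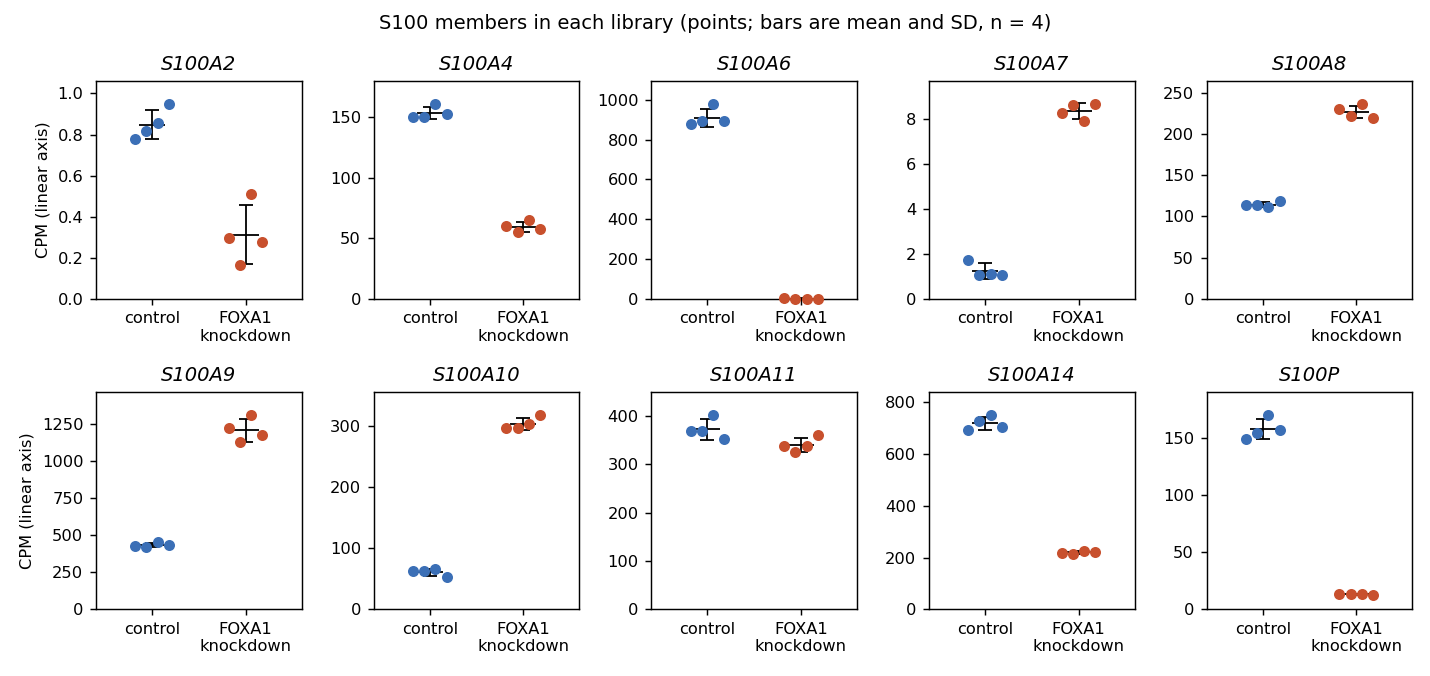
CPM of each of the 10 S100 members (vertical axis, linear, starting at 0, with its own range in each panel) in 4 control and 4 FOXA1 knockdown libraries. Points are libraries, and bars give the mean and SD (n = 4). S100A7, S100A8, S100A9 and S100A10 are higher in every knockdown library than in any control library, S100A2, S100A4, S100A6, S100A14 and S100P are lower in every one, and the groups overlap for S100A11.

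S100A7, S100A8 and S100A9, members known from secretion by epithelium and neutrophils, were all higher in knockdown. S100A8 and S100A9 encode the subunits of calprotectin, an antimicrobial heterodimer that chelates metal ions and that neutrophils and stressed epithelium release. S100A9 (ENSG00000163220.11, chromosome 1, 153357854 to 153361027, plus strand) measured 428.7, 417.1, 452.6 and 434.6 CPM in control replicates 1 to 4 and 1217, 1125, 1307 and 1175 CPM in knockdown replicates 1 to 4. The lowest knockdown library thus lay far above the highest control. The mean went from 433.2 CPM ± 14.8 to 1206 CPM ± 77.2 (SD, n = 4 per group), 2.78-fold higher, with a log2 fold change of 1.48 (SE 0.0519) and an adjusted p of 2.60e-19 by edgeR.

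S100A8 (ENSG00000143546.10, chromosome 1, 153390032 to 153391188, minus strand) had 113.4, 113.5, 111.4 and 118.4 CPM in control and 230.4, 222.1, 236.4 and 219.8 CPM in knockdown. Its groups did not overlap either, and its rise was smaller, 1.99-fold, with a log2 fold change of 0.99 (SE 0.0305, adjusted p of 1.80e-18 by edgeR). Because both subunits are needed for the heterodimer, their ratio was compared within each library, where scaling plays no part. S100A9 had 3.80 ± 0.185 counts for each count of S100A8 in control and 5.31 ± 0.192 in knockdown (SD, n = 4 per group). The log2 ratio of S100A8 to S100A9 was lower by a difference of -0.48 (SE 0.0433), and 4 of 4 knockdown libraries lay below all controls (p = 0.0286 in an exact permutation test, two-sided, the smallest p possible with 4 libraries in each group). The transcripts of the subunits therefore rose unequally.

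S100A7 encodes psoriasin, an antimicrobial protein of squamous epithelium that is also found in breast carcinoma in situ. It was scarce in control, at 1.74, 1.04, 1.09 and 1.03 CPM, and reached 8.28, 8.63, 7.88 and 8.64 CPM in knockdown. These levels correspond to 38, 23, 23 and 24 counts in control, where replicate 1 was the high one, and to 155 to 211 counts in knockdown. The rise was 6.82-fold, with a log2 fold change of 2.77 (SE 0.181, adjusted p of 1.93e-15 by edgeR). Without control replicate 1 it was larger, at 2.98. Its near copy S100A7A, also called koebnerisin, went from 0.50 CPM ± 0.0710 to 1.14 CPM ± 0.157 (SD, n = 4 per group; adjusted p of 0.000106 by edgeR).

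S100A12, whose product calgranulin C binds RAGE and is best known from neutrophils, lies between S100A9 and S100A8 and showed the largest fold rise of the 17 S100 genes. It had 3, 5, 4 and 2 counts in the control libraries and 309, 296, 218 and 250 in the knockdown libraries. Its level went from 0.160 CPM ± 0.0614 to 11.96 CPM ± 0.873 (SD, n = 4 per group), 74.8-fold higher, with a log2 fold change of 6.19 (SE 0.271, adjusted p of 1.10e-20 by edgeR). In control the gene was close to the level of 3 counts, so the size of this fold rests on few counts.

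Markers of myeloid cells, the other usual source of these 3 genes, were measured in the same libraries. Of 12 markers 9 were in the table and 4 passed the filter; CD14 and CSF3R were called higher and CSF1R lower. CSF3R, the receptor for granulocyte colony-stimulating factor, went from 3.31 CPM ± 0.485 to 30.0 CPM ± 1.19, and CSF1R from 72.4 CPM ± 3.18 to 59.6 CPM ± 3.57 (SD, n = 4 per group). The summed level of the list ran from 74.5 to 80.9 CPM in control and from 85.5 to 95.4 CPM in knockdown. Without the CSF3R and CSF1R receptors the remaining 7 markers, PTPRC (CD45), LYZ, ITGAM, ELANE, CYBB, FCGR3A and CD14, summed to at most 1.94 CPM in control and 2.29 CPM in knockdown. This split of the list was not planned. Among the 7, CD14 went from 0.181 to 0.532 CPM. CYBB and ITGAM, which did not pass the filter, went from 0.238 to 0.581 CPM and from 0.360 to 0.0923 CPM. PTPRC and ELANE had no more than 3 counts in any library, and FCGR3A was at 0 in all controls. The part of myeloid cells in the S100 changes was not tested.

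S100A10 and S100A11 lie on the same chromosome, S100A11 at a distance of 1310 kb from S100A9, and they behaved differently from each other. S100A10 encodes p11, which lacks working calcium sites and is held in a heterotetramer with annexin A2 at the plasma membrane, where it carries channels to the surface and binds plasminogen. It measured 62.6, 62.2, 65.5 and 52.7 CPM in control and 296.3, 296.3, 302.5 and 317.6 CPM in knockdown. Every knockdown library was more than 4 times as high as every control library. The rise was 4.99-fold, with a log2 fold change of 2.32 (SE 0.0723, adjusted p of 3.37e-17 by edgeR).

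ANXA2, the partner gene, rose less, from 310.1 CPM ± 10.0 to 507.8 CPM ± 20.3 (SD, n = 4 per group), 1.64-fold (adjusted p of 1.44e-15 by edgeR). ANXA2 had 4.74, 5.16, 4.75 and 5.92 counts for each count of S100A10 in control and 1.70, 1.63, 1.75 and 1.63 in knockdown. The groups of ratios were well apart. The log2 ratio of S100A10 to ANXA2 was higher by a difference of 1.61 (SE 0.0791), with 4 of 4 knockdown libraries above all controls (p = 0.0286 in the same exact permutation test).

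S100A11, also called calgizzarin, a partner of annexin A1, stayed near its control level. It had 368.4, 368.7, 402.1 and 351.6 CPM in control and 338.8, 325.2, 338.2 and 359.9 CPM in knockdown. Knockdown replicate 4 lay above control replicate 4, so the groups overlapped. On the log2 scale the fitted change was -0.13 (SE 0.0505), called by edgeR at an adjusted p of 0.00484, and the call was lost under 2 other scalings, with adjusted p of 0.123 after scaling to the upper quartile and 0.261 with unscaled library totals. The exact permutation p, two-sided, was 0.0571.

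S100A6 showed the largest change of the family. It encodes calcyclin, a protein of proliferating and stressed cells that binds the ubiquitin ligase partner CACYBP and several annexins. The gene (ENSG00000197956.10, chromosome 1, 153534599 to 153536244, minus strand) measured 880.8, 892.1, 978.0 and 893.8 CPM in control and 1.44, 0.736, 0.610 and 0.970 CPM in knockdown. In counts this was 19259 to 20768 against 12 to 34. The knockdown libraries kept 0.103% of the control level, a 969-fold fall with a log2 fold change of -9.89 (SE 0.265, adjusted p of 2.48e-21 by edgeR).

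By level S100A6 ranked 110 of the 16430 tested genes in control and 14028 in knockdown, and by fitted fold change it was the 15th largest fall. This is a larger fall than that of the targeted gene, FOXA1, whose log2 fold change was -5.60. An antisense gene (ENSG00000238279) that overlaps S100A6 by 517 bp on the opposite strand had 20, 18, 10 and 18 counts in control against 0 in all knockdown libraries. Whether the counting used strand is not given in the sources used here, and the overlap is by gene bounds. Its counts may therefore hold reads of S100A6. CACYBP, the partner, rose slightly, from 227.4 CPM ± 4.54 to 254.0 CPM ± 8.77 (SD, n = 4 per group; adjusted p of 0.000155 by edgeR).

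S100P, the one member outside chromosome 1, also fell steeply. It encodes a protein of placenta and of many carcinomas that binds ezrin and IQGAP1 and can act on RAGE. The gene (ENSG00000163993.7, chromosome 4, 6693069 to 6697170, plus strand) had 149.7, 154.6, 170.4 and 157.1 CPM in control and 13.6, 13.3, 13.5 and 12.8 CPM in knockdown. The knockdown libraries were tightly grouped and far below the controls. The fall was 11.9-fold, with a log2 fold change of -3.57 (SE 0.0434, adjusted p of 6.10e-27 by edgeR). The 50 tested genes nearest to S100P were themselves shifted upward, with a median of 0.65, and set against them the log2 fold change of S100P was -4.22. The transcripts of its binding partners moved the other way, EZR to 1.46-fold and IQGAP1 to 1.40-fold of control (adjusted p of 2.37e-14 and 3.64e-12 by edgeR).

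S100A14 and S100A16 are neighbours, 1.11 kb apart, and were among the most abundant S100 transcripts in control. S100A14 encodes a protein of epithelial cells linked to adhesion and motility. It measured 693.5, 727.6, 750.9 and 704.0 CPM in control and 219.0, 214.1, 225.8 and 220.8 CPM in knockdown, a 3.27-fold fall (edgeR adjusted p of 7.01e-24, log2 fold change -1.71, SE 0.0301). S100A16 went from 1205 CPM ± 49.5 to 215.8 CPM ± 6.04 (SD, n = 4 per group) and thus fell 5.59-fold. All knockdown libraries lay below every control library for both genes.

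S100A4 encodes metastasin, which binds non-muscle myosin IIA and is known from motile and mesenchymal cells. Its values were 150.7, 150.6, 160.7 and 152.4 CPM in control and 60.1, 54.8, 64.8 and 57.2 CPM in knockdown. The groups were clearly apart, with a 2.59-fold fall (edgeR adjusted p of 2.31e-19, log2 fold change -1.38, SE 0.0567). By gene bounds S100A3 lies wholly inside S100A4 on the same strand, over 2044 bp. S100A3 had 23 to 30 counts in control and 6 to 10 in knockdown. The overlap of their exons was not measured, so how far the counts of S100A3 hold reads of S100A4 is unknown. MYH9, the myosin heavy chain that S100A4 binds, fell to 84.8% of control (adjusted p of 3.41e-07 by edgeR).

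Markers of fibroblasts, another common source of S100A4 and S100A6, were measured too. Of 8 markers 7 were in the table, and their sum ran from 5.99 to 7.59 CPM in control and from 11.7 to 12.98 CPM in knockdown. COL3A1 rose from 0.0222 to 4.31 CPM and PDGFRB from 0.41 to 2.83 CPM, and COL1A1 fell from 5.38 to 4.32 CPM. DCN and COL1A2 were below 0.2 CPM in every library, and VIM below 0.6 CPM. The part of these markers' cells in the changes of S100A4 and S100A6 was not tested.

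S100A2, a protein of basal and squamous epithelium, was scarce in both groups. It had 17, 18, 18 and 22 counts in control and 7, 4, 10 and 6 in knockdown, or 0.849 CPM ± 0.0725 against 0.312 CPM ± 0.144 (SD, n = 4 per group). The knockdown counts were all lower, yet few in number. This gave a log2 fold change of -1.47 (SE 0.320; edgeR adjusted p of 0.000156). Leaving out each library in turn moved it between -1.77 and -1.24.

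Of the remaining 3 S100 genes 1 was called. S100A1 fell by 0.75 on the log2 scale (SE 0.105, adjusted p of 4.09e-05 by edgeR), but it overlaps S100A13 by 3435 bp on the opposite strand. S100A13 went from 62.5 CPM ± 5.49 to 58.0 CPM ± 2.19 (SD, n = 4 per group), with a log2 fold change of -0.11 (SE 0.0678) that did not pass the test (adjusted p of 0.0727 by edgeR). S100A5 had 5 to 16 counts in control and 12 to 27 in knockdown and did not pass it either (0.64 on the log2 scale, SE 0.409; edgeR adjusted p of 0.0735). Both missed the threshold narrowly and passed it under some alternatives.

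Levels were compared between genes per kb of the median protein-coding transcript in GENCODE 29. The order depends on that length, whose uncertainty the SDs leave out. By CPM alone S100A16 stood above S100A6 in control (1205 against 911). In control S100A6 stood first at 1362 CPM per kb ± 67.2, before S100A16 at 1162 ± 47.7, S100A9 at 751 ± 25.7, S100A14 at 673 ± 23.9 and S100A11 at 627 ± 35.7 (SD, n = 4 per group). The ranges of S100A14 and S100A11 overlapped over the 4 libraries, as did those of S100P (123 ± 6.90) and S100A13 (111 ± 9.75). S100A4, S100A8 and S100A10 stood at 269.7, 224 and 66.8 CPM per kb. In knockdown the order began with S100A9 at 2090 ± 134, then S100A11 at 573 ± 24.2, S100A8 at 446 ± 14.995 and S100A10 at 334 ± 11.03. S100A16 and S100A14 followed with overlapping ranges (208 ± 5.83 and 206 ± 4.51), as did S100A4 and S100A13 (104 ± 7.59 and 103 ± 3.90). S100A6 came 14th of 17 genes, with a range that overlapped those of S100A7A before it and S100A5 after it.

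**Figure D2:**
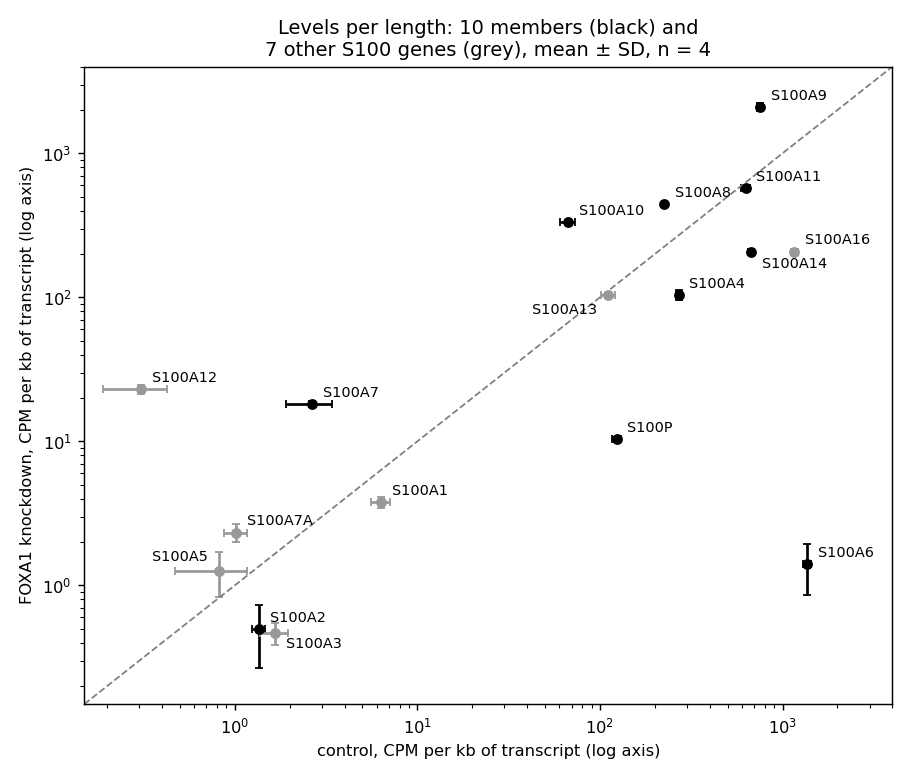
Level of each S100 gene per kb of transcript in control (horizontal, log axis) and FOXA1 knockdown (vertical, log axis), as mean ± SD of 4 libraries; black points are the 10 members, grey points the 7 other S100 genes, and the dashed line marks equal levels. S100A6 lies far below the line (1362 against 1.41 CPM per kb), S100A12, S100A7 and S100A10 above it, and S100A11 and S100A13 close to it.

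Both the total and the make-up of the S100 transcripts shifted. All 17 S100 genes together took 0.408% of all counts in control and 0.275% in knockdown. The 10 members took 0.284% ± 0.00987 of all counts in control and 0.245% ± 0.00921 in knockdown (SD, n = 4 per group). S100A6 and S100A14 made up 31.1% and 24.6% of the members' counts in control, and 0.0396% and 9.25% in knockdown. S100A9 alone went from 14.8% ± 0.339 to 50.7% ± 1.30, and S100A10 from 2.08% ± 0.161 to 12.8% ± 0.589 (SD, n = 4 per group). S100A8 and S100A9 together accounted for 18.7% of the members' counts in control and 60.2% in knockdown.

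Along chromosome 1 the directions fell into blocks. From S100A9 through S100A12, S100A8 and S100A7A to S100A7, all 5 genes rose, with a median log2 fold change of 1.48. Beyond a gap of 73.9 kb lie the 9 genes from S100A6 to S100A1, of which 7 fell, none rose and 2 (S100A5 and S100A13) did not pass the test, with a median of -1.47. The blocks were drawn after the values had been seen, so these counts are a description. Over all genes tested 39.4% were called higher and 37.7% lower. S100A2 and S100A3 passed the filter through control, S100A12 through knockdown, and the counts of S100A3 may hold reads of S100A4. The median of -1.47 is the value of S100A2, which had few counts. S100A6 and S100A5 are 0.903 kb apart, yet their log2 fold changes were -9.89 and 0.64.

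Other genes of the region moved both ways, but mostly down within the span. Of 21 tested genes without an S100 name in the span from S100A10 to S100A1 and 200 kb on either side, 8 were called higher and 11 lower. Within the span itself 2 of 10 were higher and 7 lower, with a median log2 fold change of -1.37. The 4 that lie among the genes from S100A6 to S100A1 ranged from -7.06 (the gene antisense to S100A6) to -0.24. Some of the 10 are noncoding genes that overlap S100A6, S100A11, S100A1 or S100A13 by gene bounds, so their counts may hold S100 reads. In the flank next to S100A1, 6 genes ranged from -0.35 (SNAPIN) to 0.61 (ILF2), and 4 of them were called higher and 2 lower. In the flank next to S100A10, 2 of 5 genes were higher and 2 lower, with a median of 0.03. The median of the 50 nearest tested genes, S100 genes left out, was between -0.27 and 0.05 around the 9 members on chromosome 1, and taking it out left the members' counts at 4 higher and 6 lower. With the same offset S100A5 (0.89) and S100A13 (0.15, a change of sign) were called higher, at edgeR adjusted p of 0.0148 and 0.0151, so that the absence of rises from S100A6 to S100A1 does not hold under it.

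**Figure D3:**
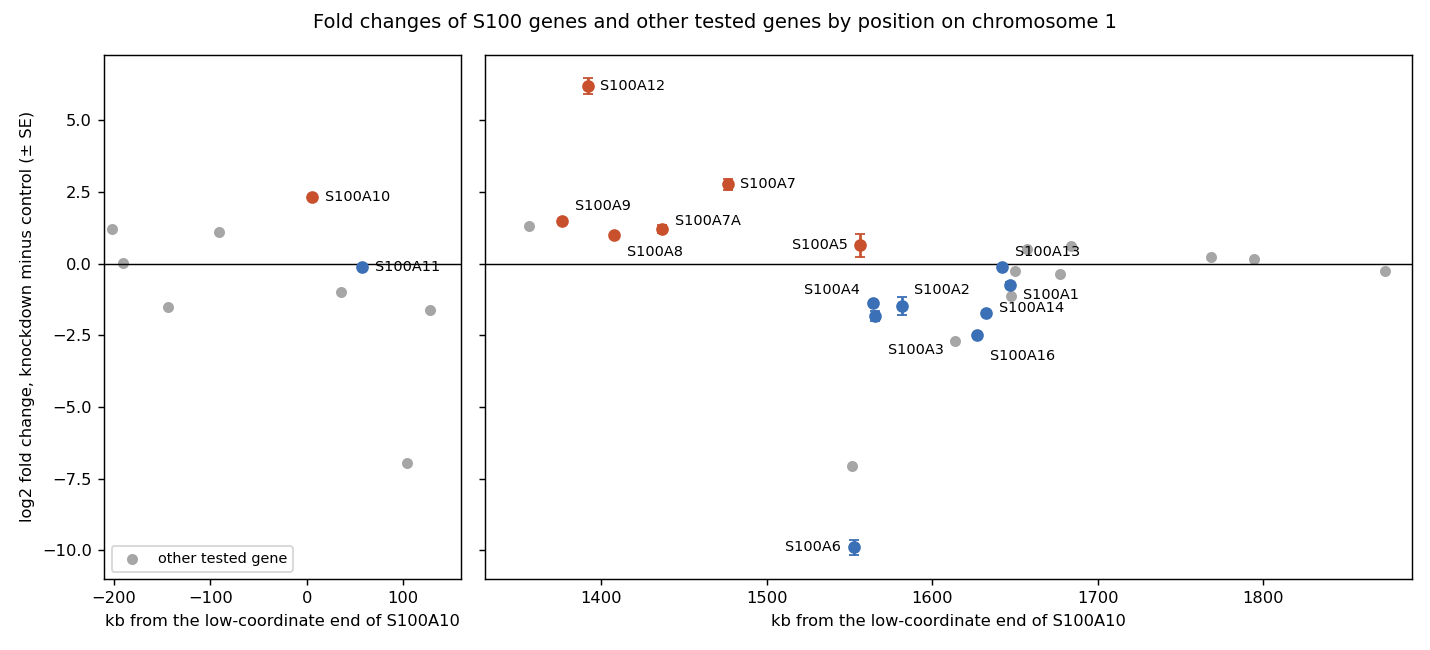
Log2 fold change (knockdown minus control, ± SE for S100 genes) against the distance of a gene's midpoint, in kb, from the end of S100A10 with the lower coordinate; red and blue points are S100 genes above and below 0, grey points other tested genes, of which 1 in the left panel is not drawn. The span between the panels, which holds IVL and SPRR3, is not drawn. S100A9, S100A12, S100A8, S100A7A and S100A7 lie above 0, and S100A6 lies lowest at -9.89.

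The epidermal differentiation complex, between S100A11 and S100A9, holds genes for the cornified envelope of squamous cells. Of the 28 genes listed for it, 12 were in the table (1 of them, NUP210L, lies beyond S100A1 and outside that interval) and 5 passed the filter, 2 called higher and 3 lower. IVL (involucrin, an envelope precursor) fell from 90.5 CPM ± 3.23 to 7.23 CPM ± 0.294, and TCHHL1, an S100-fused type gene, from 11.9 CPM ± 0.406 to 0.0910 CPM ± 0.0698 (SD, n = 4 per group). TCHH fell as well (log2 fold change -1.63, SE 0.328). SPRR3 rose from 0.571 CPM ± 0.164 to 3.93 CPM ± 0.433, and PGLYRP4, next to S100A9, from 0.353 CPM ± 0.118 to 0.889 CPM ± 0.0980 (SD, n = 4 per group). Filaggrin (FLG) had at most 2 counts in any library.

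Markers of basal or squamous cells, which share several S100 genes, were also mixed. Of 14 markers 12 were in the table and 7 passed the filter, with TP63 and EGFR higher, KRT17, KRT16 and KRT13 lower, and KRT5 and KRT10 not called. The summed level ran from 256.2 to 275.5 CPM in control and from 449.5 to 489.0 CPM in knockdown, most of it EGFR. KRT14, KRT6A and KRT1 were below 0.5 CPM in every library. Among the luminal list, 9 of 10 genes were tested, 4 higher and 5 lower, with a sum of 16826 to 18752 CPM in control and 11002 to 11870.2 CPM in knockdown. ERBB2 was among the 5, at 18.3% of its control level, and SPDEF, a luminal transcription factor, at 0.198%. The 4 called higher were KRT8, KRT18, EPCAM and GATA3. GATA3 went from 4.28 CPM ± 0.426 to 35.8 CPM ± 1.92 (SD, n = 4 per group). The part of these markers' cell states in the S100 changes was not tested.

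Partners and receptors of S100 proteins were followed as a list of 33 genes. In the table were 31 of them, and 27 passed the filter, of which 14 were called higher and 11 lower, with a median log2 fold change of 0.23. MDM2 and KCNK3 were not called. At 25 of 27 the share called is above the background of 77.1%. By fitted change 4 of them were 2-fold or more higher and 5 were 2-fold or more lower. Of all genes tested 28.3% were called with a change of that size. A test against a 2-fold change called 7 partners, and the share of all genes called in that test is not given here. The list was chosen with earlier results of these data known, so its share is a description.

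Receptors of the secreted members moved both ways. AGER (RAGE, the receptor of S100A7, S100A8, S100A9, S100A12 and S100P) had 10, 10, 4 and 13 counts in control and 19, 19, 20 and 27 in knockdown, higher by 1.18 on the log2 scale (SE 0.357; edgeR adjusted p of 0.000946). MCAM, a receptor reported to bind S100A8 with S100A9, fell from 4.35 CPM ± 0.303 to 0.702 CPM ± 0.213, and ALCAM, of the same adhesion family, from 16.4 CPM ± 1.08 to 6.47 CPM ± 0.281 (SD, n = 4 per group). BSG (basigin), which S100A9 can bind, was the most abundant of the receptors and fell to 81.7% of control (adjusted p of 1.55e-07 by edgeR).

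Intracellular partners included the largest rises. FABP5, a fatty acid carrier that binds S100A7, went from 8.45 CPM ± 0.612 to 42.0 CPM ± 2.15, 4.98-fold higher, in the same direction as S100A7; FABP5 and ANXA2 have near-identical processed copies in the genome, among which counting could divide their reads. ANXA1, partner of S100A11, rose 4.77-fold from 14.4 CPM ± 1.75 to 68.7 CPM ± 4.29, whereas ANXA6 fell 4.10-fold from 317.8 CPM ± 14.95 to 77.6 CPM ± 3.58 (SD, n = 4 per group). PLAT, the tissue plasminogen activator that the S100A10 and annexin A2 complex can bind, went from 1.32 CPM ± 0.395 to 2.98 CPM ± 0.255. TRPV6, a calcium channel that this complex carries to the membrane, fell 6.54-fold from 57.9 CPM ± 2.47 to 8.86 CPM ± 0.413 (SD, n = 4 per group), against the direction of S100A10.

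**Figure D4:**
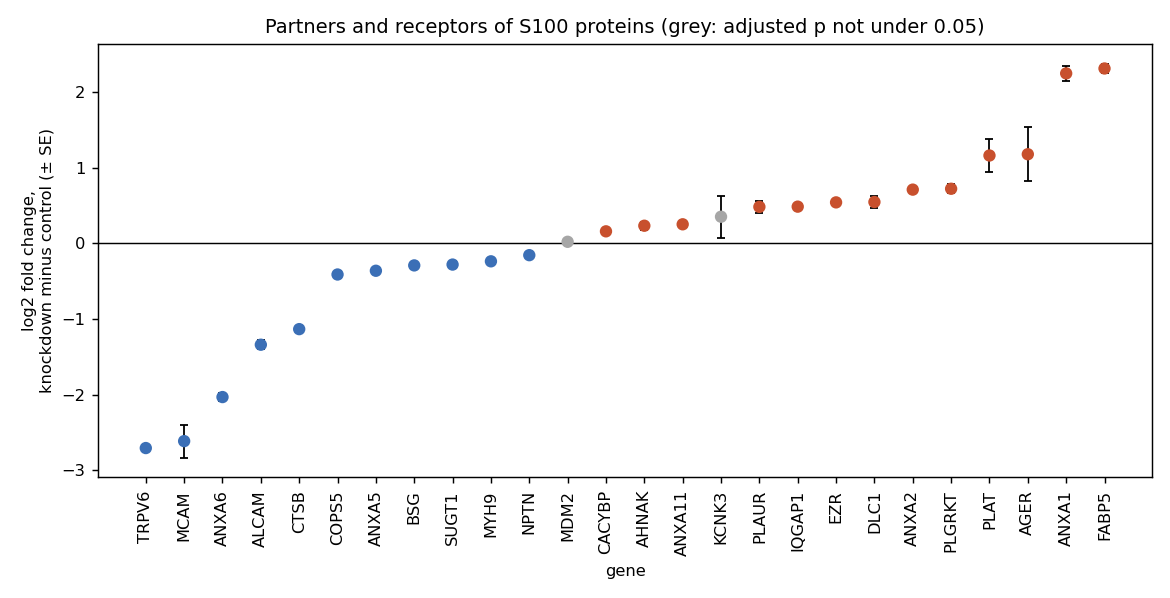
Log2 fold change (knockdown minus control, ± SE from 4 libraries per group) of tested partners and receptors of S100 proteins, in order of size, with 1 of the 27 not drawn; red and blue points passed an adjusted p of 0.05, grey points did not. Changes run from -2.71 (TRPV6) to 2.31 (FABP5), and MDM2 and KCNK3 are the grey points.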

How the data were processed

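RNA was extracted with Trizol and sequenced as paired-end reads of 101 bp on an Illumina NextSeq instrument, per the labels' protocols. The authors deposited estimated counts per gene as whole numbers under Ensembl identifiers. Salmon 1.9, FastQC and DESeq2 and the build hg38 are named in the submitters' processing notes, without their roles. The annotation release and the strand setting are not given in the sources used here. Groups came from sample titles, and each column was matched by name.

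The counts entered R 4.3.3 and edgeR 4.0.16 unchanged, since rounding altered none. filterByExpr (minimum 10 counts, total 15) kept 16430 genes. TMM scaling, glmQLFit (robust) and glmQLFTest followed, with Benjamini-Hochberg adjustment over all genes and a threshold of 0.05. Fitted fold changes use a prior count of 0.125. CPM is the count over the TMM-scaled library total. Standard errors come from log2 CPM with 0.5 added to each count. Single values were tested by exact two-sided permutation over 70 divisions of the libraries. Positions are from GENCODE 29 (GRCh38). On simulated counts of 16430 genes for this comparison, 97 of 100 genes changed 4-fold (2 on the log2 scale) and 89 of 100 changed 2-fold were called with the right sign, with 7 false calls in 193. Far fewer genes were changed there than were called in these data, and all had the same dispersion. The simulation therefore does not check scaling or false calls where most genes change.

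Genes were named by rule: FOXA1, all S100 genes, detected genes of the epidermal differentiation complex, the 4 largest rises and falls among partners, the partners of members, and the extremes of flanking genes. The members and lists were chosen with earlier results of these data known. Alternatives were other scalings and filters, DESeq2 1.42.0, limma 3.58.1 (voom), no robust estimation, a replicate block, a regional offset (median of the 50 nearest tested genes), a stricter adjusted p, a test against a 2-fold change and leaving out each library. Some tested genes of the flanks and the partner list are counted but not reported by name here.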

Additional observations from a re-analysis of the deposited data

Results flagged for a closer look

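Each group of 4 libraries was examined with Dixon's gap ratio, the distance of the highest or lowest library from its neighbour as a share of the range, at the 95% critical value. Of 40 groups of values 2 were picked out, about the number that chance gives at 1 in 20. S100A6 was high in control replicate 3, at 978.0 CPM against 880.8 to 893.8 in the other controls (gap ratio 0.866). S100A7 was high in control replicate 1, at 1.74 CPM against 1.03 to 1.09 (gap ratio 0.918).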

How the results depend on the processing

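Of the 302 fold changes of S100 genes under 18 alternatives, 293 kept their direction and their side of the threshold. Of the rest, S100A11 lost its call under 2 scalings and S100A5 passed the threshold in 4 cases. S100A13 passed it in 2 cases with its sign kept and in 1 with its sign changed. The sign of S100A13 changed with the regional offset, to 0.15 (adjusted p of 0.0151 by edgeR), and the cause was not tested. The members called numbered 4 higher and 6 lower without any one library, and 3 higher and 4 lower in a test against a 2-fold change. The partners called fell from 25 to 7 in that test, and numbered 25 to 26 without any one library. The share of all genes called in the 2-fold test is not given here, so these counts have no background beside them. Library size alone moved the median log2 fold change of all genes to 0.10. Leaving out each library kept the difference in the log2 ratio of S100A8 to S100A9 between -0.52 and -0.46, that of S100A10 to ANXA2 between 1.54 and 1.65 and the genes called between 12498 and 12865. Same-numbered libraries correlated at -0.03 to 0.17 in their deviations, and differently numbered ones at -0.12 to 0.07. These ranges overlap, and whether the numbers pair the libraries is not settled. With the replicate block the members stayed at 4 higher and 6 lower and the partners at 25. In that fit 12453 genes were called, against 12675 without the block. Counts of 2 to 30 per library (S100A2, S100A3, S100A5, S100A12 in control) limit the precision of those folds.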
